A study of Rattus norvegicus with 9 samples.

Results

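The 9 genes described here encode proteins of the tight junction and the desmosome in rat adipose-derived mesenchymal stem cells: Cldn1, Cldn15, Ocln, F11r, Tjp1 and Cgn for the tight junction, and Dsp, Pkp2 and Jup for the desmosome. They were chosen by symbol, with earlier results of these data known, and are 9 of the 35362 genes in the deposited count table. Of these 9, 8 were among the 14770 genes with enough counts to be tested, and Cldn1 was not. The desmosomal plaque genes Dsp and Pkp2 had at most 14 counts per sample in cells from subcutaneous fat and were higher in cells from both visceral depots, most of all in those from perirenal fat. Jup, the third plaque gene, had the opposite order.

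The study compared mesenchymal stem cells grown from 3 fat depots of male Sprague Dawley rats that were 6 weeks old per the methods: subcutaneous fat of the groin (SASCs), perirenal fat (PASCs) and epididymal fat (EASCs). The tissue was digested with collagenase type I, the cells that attached to plastic were grown in serum, and untreated cells at passage 3 gave 3 RNA-Seq samples per depot. These are bulk cultures selected by attachment, and they can hold cells of several types. The protocol names 6 replicates per depot, each a well of cells, of which 3 samples per depot were analysed here, and every sample title begins with the same prefix (sd1). Whether the wells of a depot held cells of different rats is not stated, so the p-values below measure only the spread between these samples, which may be technical.

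The 9 samples held 17591916 to 30299032 counts over genes. Levels are given as CPM, counts scaled to the same library total, scaled by edgeR's TMM factors, which ranged from 0.740 to 1.23. A gene with 3 counts in a library would have between 0.104 and 0.159 CPM, and lower values are close to the limit of detection. Ribosomal RNA genes took 10.2% to 15.3% of counts in SASCs, from 22.2% to 32.7% in PASCs and from 15.8% to 40.1% in EASCs. A differentially expressed gene (DEG) is one with a fold change above 2 and a Benjamini-Hochberg adjusted p under 0.05 in edgeR's quasi-likelihood test, adjusted over all 14770 genes. Adjusted p-values below come from that test unless another setting or tool is named. The standard error (SE) or interval of the log2 fold change is given for most of the values of the 8 tested genes.

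Tight junctions seal the space between neighbouring epithelial or endothelial cells. Claudins and occludin span the membranes of both cells, junctional adhesion molecules such as F11r stand beside them, and the scaffold proteins Tjp1 (ZO-1) and Cgn (cingulin) tie them to actin. Desmosomes are spot-like contacts that resist mechanical pull. In them desmoglein and desmocollin cadherins bind plakoglobin (Jup) and plakophilins, which bind desmoplakin (Dsp), and desmoplakin holds the keratin or other intermediate filaments. Mesenchymal cells such as fibroblasts usually make few desmosomes, while mesothelial and epithelial cells make many. Plakoglobin also belongs to adherens junctions, and Tjp1 is made by many cells that have no sealed junction.

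Transcription factors of the Zeb and Snail families repress junction genes in epithelial cells by binding the E-box letters CAGGTG. Promoters of 8 of the 9 genes were found in the RefSeq table for the GRCr8 assembly (Pkp2 was the gene not found), and the letters CAGGTG or their reverse complement CACCTG were searched in the 250 bases before each annotated start. They occurred in the promoters of 4 of the 8 genes, against 5323 of 33469 promoters (15.9%) in the whole table. The palindrome AACCGGTT, the letters bound by Grainyhead-like factors such as Grhl2, occurred in none of the 8 and in 0.146% of all promoters. The 4 promoters with the E-box letters are printed because the levels of Zeb and Snail genes, given further on, differed between the depots. Each runs 5′ to 3′ up to the base before the start, in lower case with CAGGTG or CACCTG in capitals. Ocln lies on the minus strand at chr2:33441199-33441448, F11r on the plus strand at chr13:86405979-86406228, Dsp on the minus strand at chr17:26877122-26877371 and Jup on the minus strand at chr10:85827430-85827679.
Ocln: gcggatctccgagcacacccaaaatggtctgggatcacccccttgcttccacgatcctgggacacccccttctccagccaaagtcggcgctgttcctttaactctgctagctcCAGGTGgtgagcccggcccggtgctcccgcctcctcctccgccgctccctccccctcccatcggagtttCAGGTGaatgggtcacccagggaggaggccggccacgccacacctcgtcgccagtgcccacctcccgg
F11r: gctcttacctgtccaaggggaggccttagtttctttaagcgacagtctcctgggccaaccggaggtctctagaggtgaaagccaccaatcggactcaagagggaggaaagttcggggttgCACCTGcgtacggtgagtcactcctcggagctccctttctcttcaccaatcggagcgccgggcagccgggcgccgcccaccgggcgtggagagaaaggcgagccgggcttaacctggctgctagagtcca
Dsp: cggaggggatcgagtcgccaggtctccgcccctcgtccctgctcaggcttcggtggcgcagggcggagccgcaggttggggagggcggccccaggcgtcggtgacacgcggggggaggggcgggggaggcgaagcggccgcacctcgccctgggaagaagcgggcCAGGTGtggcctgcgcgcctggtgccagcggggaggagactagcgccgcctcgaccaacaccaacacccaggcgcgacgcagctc
Jup: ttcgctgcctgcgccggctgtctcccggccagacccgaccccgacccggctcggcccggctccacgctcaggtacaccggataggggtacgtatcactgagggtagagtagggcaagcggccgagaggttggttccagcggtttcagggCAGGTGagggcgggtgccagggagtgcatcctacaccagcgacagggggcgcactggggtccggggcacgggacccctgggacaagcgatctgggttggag
Ocln held 2 copies, 137 and 68 bases before the start, and 1.84% of all promoters held 2 or more. The single copies began 130 bases before the start in F11r, 85 bases before it in Dsp and 101 bases before it in Jup. Such a match describes the letters and does not show that a factor was bound.

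Pkp2 had the largest log2 differences from SASCs among the 8 tested genes, and Dsp the next largest in PASCs. Dsp lies at chr17:27286811-27334451 on the minus strand of rn6, and desmoplakin, its product, is the link from the plaque to the intermediate filaments. The description beside this symbol in the table names dentin sialophosphoprotein, but the position is that of desmoplakin in RefSeq. Dentin sialophosphoprotein has a row of its own, Dspp on chromosome 14, with 0 counts in every sample, so the Dsp values were taken as those of desmoplakin.

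Dsp stood at 0.487, 0.467 and 0.244 CPM in SASCs 1, 2 and 3, from 5 to 14 counts per sample. In PASCs it reached 6.43, 6.65 and 7.15 CPM, from 135 to 178 counts, and in EASCs 2.09, 1.95 and 1.83 CPM, from 41 to 50 counts. The 3 groups did not overlap, with PASCs highest, EASCs between and SASCs lowest. Dsp was 16.2-fold higher in PASCs than in SASCs (log2 fold change 4.02, SE 0.257, edgeR adjusted p = 1.02e-13). In EASCs it was 4.73-fold higher than in SASCs (log2 fold change 2.24, SE 0.292, edgeR adjusted p = 1.41e-07). Between the visceral depots, Dsp was 3.43-fold lower in EASCs than in PASCs (log2 fold change -1.78, SE 0.202, edgeR adjusted p = 6.16e-08).

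Pkp2, at chr11:88912163-88972213 on the minus strand of rn6, encodes plakophilin 2, a plaque protein that strengthens the tie between plakoglobin and desmoplakin and is best known from heart muscle. SASCs 1 and 3 had 0.139 and 0.0976 CPM of Pkp2, and SASCs 2 had 0 counts, which allows up to 0.127 CPM. Only 6 counts of Pkp2 were found in all 3 SASCs samples together. PASCs had 12.3, 12.3 and 12.0 CPM, from 227 to 328 counts, and EASCs had 5.69, 5.55 and 6.93 CPM, from 136 to 155 counts. As for Dsp, the groups were fully apart in the order PASCs, EASCs, SASCs. In bulk samples, fewer cells that make a transcript and less transcript per cell cannot be told apart, here and in all results below.

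The fitted difference of Pkp2 from SASCs was 7.12 on the log2 scale in PASCs (SE 0.294, edgeR adjusted p = 5.87e-18) and 6.11 in EASCs (SE 0.323, edgeR adjusted p = 1.50e-15). As folds these are 139 and 69.2, and their size rests on the 6 SASCs counts. Without SASCs 1, which held 4 of the 6, the log2 differences were 7.91 and 6.90. Pkp2 was 2.01-fold lower in EASCs than in PASCs (log2 fold change -1.01, SE 0.149, edgeR adjusted p = 4.81e-06). That fold change sits at the threshold, and the log2 value fell short of it without EASCs 1 (-0.97), without EASCs 2 (-0.95), with upper-quartile scaling (-0.98) and with limma on log2(FPKM + 0.1) (-0.99) or log2(FPKM + 1) (-0.81). Both genes predicted on the opposite strand within Pkp2, LOC103693606 and LOC683148, held 3 and 1 counts over all 9 samples.

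Jup, at chr10:88280517-88307453 on the minus strand of rn6, encodes plakoglobin, the armadillo protein shared by desmosomes and adherens junctions. It was well detected in every sample, at 67.8, 67.5 and 73.1 CPM in SASCs 1, 2 and 3. The PASCs samples had 24.0, 24.7 and 23.6 CPM, and the EASCs samples had 42.1, 41.4 and 46.4 CPM. The 3 groups were again apart, but SASCs were highest and PASCs lowest, the reverse of Dsp and Pkp2. Jup was 2.88-fold lower in PASCs than in SASCs (log2 fold change -1.53, SE 0.0687, edgeR adjusted p = 4.30e-17). EASCs stood between, 1.60-fold below SASCs (log2 fold change -0.68, edgeR adjusted p = 5.17e-10) and 1.80-fold above PASCs (log2 fold change 0.84, edgeR adjusted p = 1.50e-10). Neither of those differences reached the fold threshold.

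**Figure D1:**
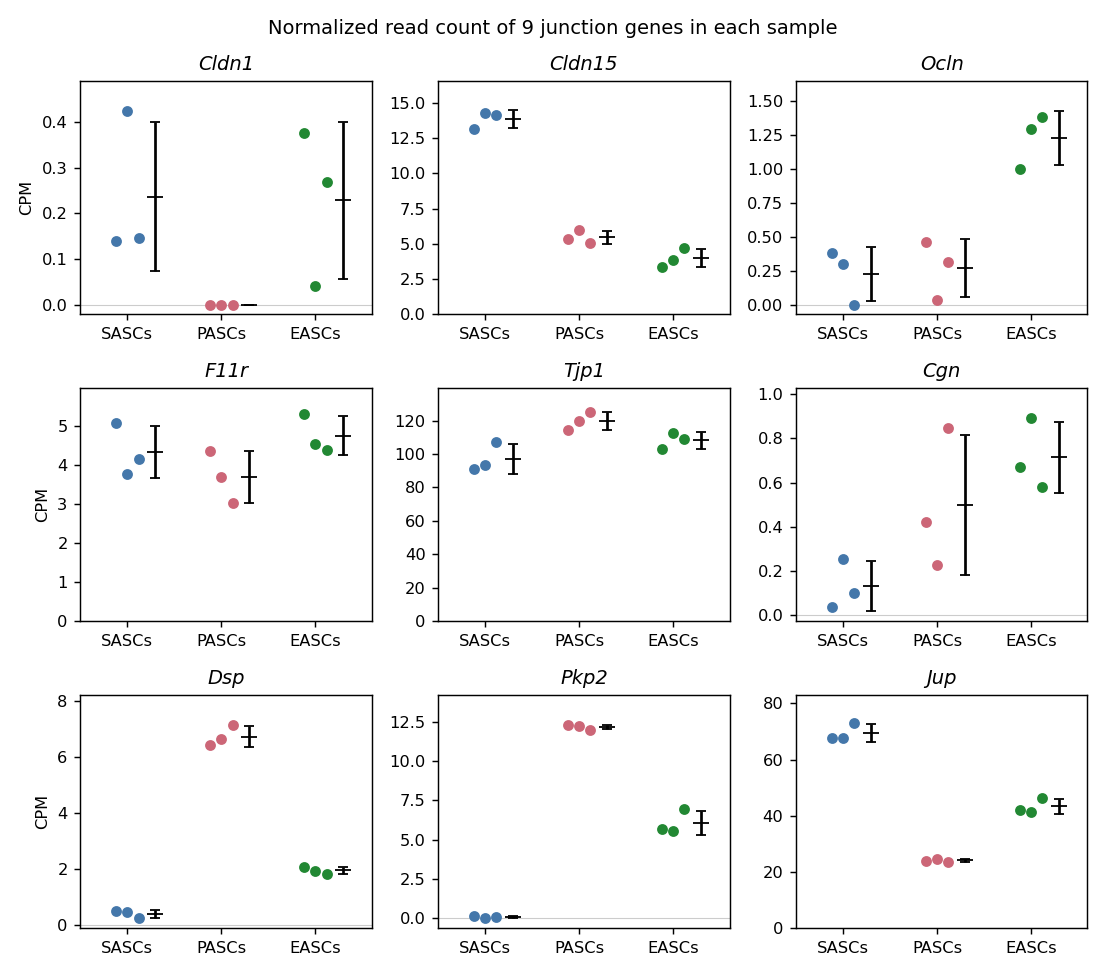
Levels of the 9 tight junction and desmosome genes in each of the 9 samples, in CPM, 1 panel per gene with its own axis from 0, coloured points for samples and black marks beside them for the mean ± SD of 3 samples per group. Dsp and Pkp2 were highest in PASCs and near 0 in SASCs, whereas Jup and Cldn15 were highest in SASCs.

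To set the plaque genes beside each other, levels were divided by transcript length (FPKM, the CPM divided by the transcript length in kilobases, computed here from the counts). In SASCs, the mean FPKM was 19.3 for Jup, 0.0415 for Dsp and 0.0375 for Pkp2. Jup was thus read far above both partners there. In PASCs the FPKM of Pkp2 (5.80) came near that of Jup (6.70), and Dsp had 0.701. In EASCs, Jup had an FPKM of 12.0, Pkp2 2.88 and Dsp 0.203. As a share of the Jup FPKM in the same sample, Pkp2 was 84.9% to 87.6% in the PASCs samples, 22.9% to 25.6% in the EASCs samples and 0% to 0.351% in the SASCs samples. Dsp was 10.0% to 11.3% of the Jup FPKM in PASCs, 1.48% to 1.86% in EASCs and 0.125% to 0.268% in SASCs. These shares are of transcript levels, and protein was not measured.

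Of 13 further desmosome genes in the table, 8 had enough counts to be tested. Of these 8, 2 rose and 4 fell as DEGs in EASCs against SASCs, 3 rose and 4 fell in PASCs against SASCs, and 2 were higher and 1 lower in EASCs than in PASCs. Their median log2 fold changes were -0.57, -1.19 and 1.00, beside 0.01, -0.01 and -0.01 over all genes tested. Pkp1, another plakophilin, stood at 7.67 ± 0.560 CPM in SASCs, 42.8 ± 0.831 in PASCs and 112 ± 3.08 in EASCs (SD, n = 3). Unlike Pkp2, it was highest in EASCs, by 1.38 on the log2 scale over PASCs (edgeR adjusted p = 3.10e-16). Pkp4 had 8.33 CPM in SASCs, 18.9 in PASCs and 13.3 in EASCs, the order of Dsp and Pkp2. It was a DEG in PASCs against SASCs only (log2 fold change 1.18, edgeR adjusted p = 9.53e-10), and by total counts alone it was under the fold threshold (0.86).

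Of the desmosomal cadherins, 4 had enough counts to be tested, and 3 of them (Dsc2, Dsc3 and Dsg1) fell as DEGs in both visceral depots while Dsg2 rose in both. Dsc2, desmocollin 2, had 25.1 ± 0.600 CPM in SASCs but 0.636 ± 0.256 in PASCs and 1.44 ± 0.570 in EASCs (SD, n = 3). It fell by 5.31 on the log2 scale in PASCs (edgeR adjusted p = 1.16e-18) and by 4.12 in EASCs (edgeR adjusted p = 1.59e-17). Dsc2 was also 1 of the 2 genes called higher in EASCs than in PASCs (1.19, edgeR adjusted p = 0.00286). That call was lost without EASCs 1 (0.81, edgeR adjusted p = 0.0517) and without PASCs 1 (0.86). Dsc3 and Dsg1, named here after their values were seen, were scarce. Dsc3 had 1.21 CPM in SASCs, 0.131 in PASCs and 0.341 in EASCs (edgeR adjusted p = 2.75e-05 for PASCs and 0.00189 for EASCs against SASCs). Dsg1 had 17 to 32 counts per SASCs sample, at most 2 per PASCs sample and at most 7 per EASCs sample (edgeR adjusted p = 2.14e-05 and 0.000236). The call of Dsg1 in EASCs was lost with DESeq2 (adjusted p = 0.0553). Dsg2, desmoglein 2, was scarce everywhere. It had at most 3 counts in a SASCs sample, while PASCs samples held 3 to 22 and EASCs samples 14 to 18. Its log2 fold changes against SASCs were 2.37 in PASCs (edgeR adjusted p = 0.0176) and 3.19 in EASCs (edgeR adjusted p = 0.000975). The call in PASCs was lost without PASCs 2 (0.89, edgeR adjusted p = 0.469) and without SASCs 1 (1.69, edgeR adjusted p = 0.0999), and the value was 3.14 without SASCs 3. In EASCs it was 2.51 without SASCs 1 and 3.96 without SASCs 3. Ppl, periplakin, which links desmosomes to the cell cortex, was lower in both visceral depots, with 44.4 CPM in SASCs, 5.19 in PASCs and 1.64 in EASCs. PASCs, the group with the most Dsp and Pkp2, thus had the lowest mean of Dsc2 and of Jup. Dsg4 had 0 counts in every sample.

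**Figure D2:**
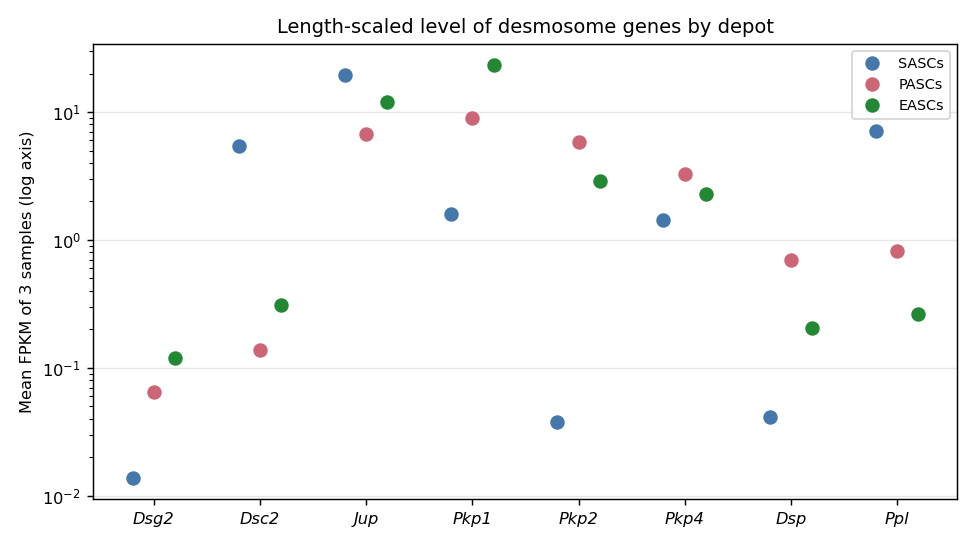
Mean FPKM of 3 samples (log axis) for 8 desmosome genes, with 1 point per gene and group and no error bars. Jup and Dsc2 were highest in SASCs, Pkp2 and Dsp in PASCs, and Pkp1 in EASCs.

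Of the 8 tested tight junction and desmosome genes, 5 were DEGs in EASCs against SASCs, where Ocln, Cgn, Dsp and Pkp2 rose and Cldn15 fell. Among all genes tested, 27.8% were DEGs in that comparison, 13.6% higher and 14.2% lower. In PASCs against SASCs 5 were DEGs, with Cgn, Dsp and Pkp2 higher and Cldn15 and Jup lower, against a background of 26.9%, 12.0% higher and 14.9% lower. In EASCs against PASCs 3 were DEGs, Ocln higher and Dsp and Pkp2 lower, against 7.39% of all genes, 5.19% higher and 2.20% lower. With no fold threshold, the adjusted p was under 0.05 for 7, 6 and 5 of the 8, against 69.7%, 69.2% and 30.7% of all genes in the same order. The samples of the groups compared did not overlap for 6, 5 and 7 of the 8, against 72.1%, 71.6% and 41.2%. Ocln, Cgn, Dsp and Pkp2 passed the filter on low counts only through the groups where they were high, so these counts are a description. SASCs are the control in 2 of the comparisons, which therefore share samples.

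**Figure D3:**
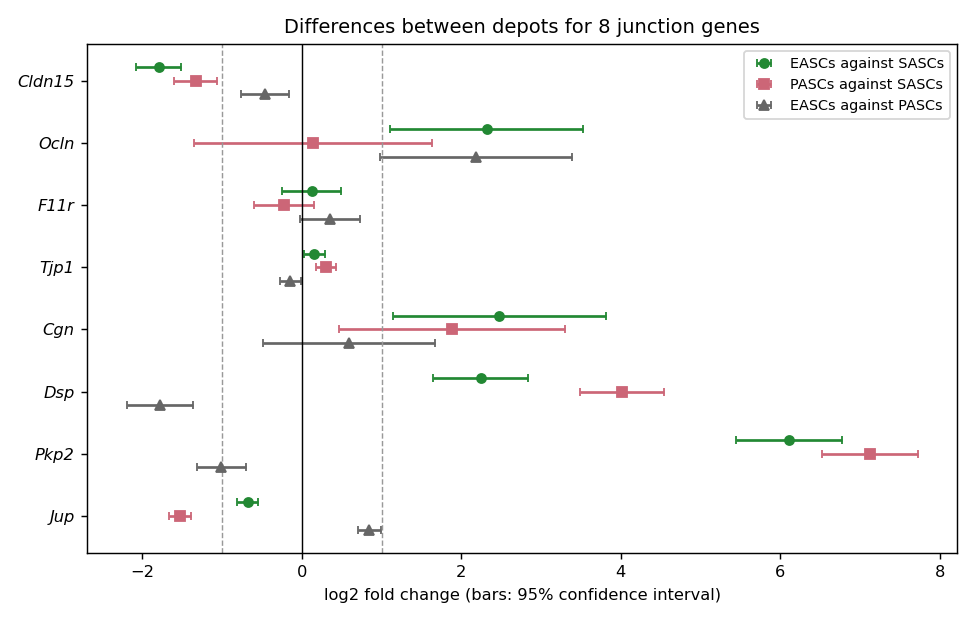
Log2 fold changes of the 8 tested tight junction and desmosome genes in the 3 comparisons. Bars are 95% intervals computed from edgeR's log2 fold change and F statistic, and dashed lines mark a fold change of 2 in each direction. Tjp1 and F11r lie near 0 in all 3 comparisons, while Pkp2 lies near 6.11 and 7.12 against SASCs.

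Among the tight junction genes, the claudins set the pores and seals of the junction. Cldn15, at chr12:22738198-22750410 on the minus strand of rn6, encodes a claudin known for passing cations in the gut. Its level was 13.1, 14.3 and 14.2 CPM in SASCs 1, 2 and 3. It was 5.36, 5.98 and 5.08 CPM in PASCs, and 3.39, 3.89 and 4.70 CPM in EASCs. Each SASCs sample was above every visceral sample, and each PASCs sample was above every EASCs sample. Cldn15 fell 3.47-fold in EASCs (log2 fold change -1.80, SE 0.137, edgeR adjusted p = 4.53e-12) and 2.52-fold in PASCs (log2 fold change -1.33, SE 0.131, edgeR adjusted p = 8.56e-10). The step from PASCs to EASCs was under the fold threshold (log2 fold change -0.46, SE 0.148, edgeR adjusted p = 0.0179).

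Cldn1, at chr11:77815216-77830373 on the plus strand of rn6, encodes a sealing claudin of skin and other epithelia. It had 3 to 10 counts per SASCs sample (0.139, 0.424 and 0.146 CPM), 0 counts in every PASCs sample, and 1 to 9 counts per EASCs sample (0.377, 0.0405 and 0.268 CPM). SASCs and EASCs overlapped, while PASCs lay below both. Against the mean of 0.129 CPM that 3 counts per library would give in PASCs, Cldn1 was at least 1.84-fold higher in SASCs and at least 1.78-fold higher in EASCs. Single samples set these bounds, which were at least 1.11-fold without SASCs 2 and at least 1.20-fold without EASCs 1. An exact two-sided permutation test of its CPM gave p = 0.1 for PASCs against either group, the smallest that 3 against 3 samples allow. With the filter removed, the edgeR adjusted p was 0.00419 for PASCs against SASCs and 0.0118 for EASCs against PASCs.

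Ocln, at chr2:30527327-30577218 on the minus strand of rn6, encodes occludin, a membrane protein of epithelial and endothelial tight junctions whose promoter held 2 E-box copies above. SASCs had 0.382, 0.297 and 0 CPM, from 0 to 11 counts. PASCs had 0.459, 0.0374 and 0.318 CPM, from 1 to 12 counts, and overlapped SASCs. EASCs had 1.00, 1.30 and 1.39 CPM, from 24 to 32 counts, all above the other 6 samples. Ocln was 4.99-fold higher in EASCs than in SASCs (log2 fold change 2.32, SE 0.589, edgeR adjusted p = 0.00108). It was 4.54-fold higher in EASCs than in PASCs (log2 fold change 2.18, SE 0.585, edgeR adjusted p = 0.00500). Single libraries moved these log2 values. Against SASCs the value was 1.83 without SASCs 3 and 2.93 without SASCs 1. Against PASCs it was 2.92 without PASCs 1 and 1.62 without PASCs 2, where the edgeR adjusted p was 0.0446. PASCs and SASCs were not told apart (log2 fold change 0.14, 95% interval -1.35 to 1.63, edgeR adjusted p = 0.875).

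F11r, at chr13:89826272-89850151 on the plus strand of rn6, encodes junctional adhesion molecule A, an immunoglobulin-like protein of epithelial, endothelial and blood cells. Its levels were 5.08, 3.78 and 4.15 CPM in SASCs, 4.36, 3.70 and 3.02 CPM in PASCs, and 5.32, 4.54 and 4.38 CPM in EASCs. SASCs overlapped both visceral groups, while every EASCs sample was above every PASCs sample, if barely. No comparison passed the test: the log2 fold change was 0.12 in EASCs against SASCs (95% interval -0.24 to 0.49) and -0.23 in PASCs against SASCs (-0.60 to 0.15). Between EASCs and PASCs it was 0.35 (-0.03 to 0.72, edgeR adjusted p = 0.159). These intervals leave out a 2-fold difference in either direction. The sign in EASCs against SASCs turned with scaling by total counts alone, to -0.27.

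Tjp1, at chr1:126146489-126249545 on the minus strand of rn6, encodes ZO-1, the scaffold below both tight and adherens junctions. It had 90.8, 93.5 and 107 CPM in SASCs, 114, 120 and 125 CPM in PASCs, and 103, 113 and 109 CPM in EASCs. The PASCs samples were above all others, while SASCs and EASCs overlapped. Per length, its mean FPKM of 12.8 in SASCs was under that of Jup, and its 15.7 in PASCs and 14.2 in EASCs were above. The differences between depots were small, with log2 fold changes of 0.30 in PASCs against SASCs (SE 0.0628, edgeR adjusted p = 0.000126) and 0.16 in EASCs against SASCs (SE 0.0630, edgeR adjusted p = 0.0281). Both signs depended on scaling, since by total counts alone the values were -0.020 and -0.23, beside an all-gene median of -0.33 and -0.39.

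Cgn, at chr2:195909691-195936986 on the minus strand of rn6, encodes cingulin, a coiled-coil protein of the inner face of tight junctions. It had 1 to 6 counts per SASCs sample (0.0348, 0.255 and 0.0976 CPM), 6 to 16 per PASCs sample (0.421, 0.224 and 0.847 CPM) and 13 to 22 per EASCs sample (0.670, 0.892 and 0.582 CPM). EASCs lay above SASCs without overlap, and PASCs overlapped both. Cgn was 5.56-fold higher in EASCs than in SASCs (log2 fold change 2.47, SE 0.650, edgeR adjusted p = 0.00148), and 3.43 on the log2 scale without SASCs 2. In PASCs it was 3.70-fold higher than in SASCs (log2 fold change 1.89, SE 0.689, edgeR adjusted p = 0.0175). That call was lost without SASCs 1 (edgeR adjusted p = 0.105), without SASCs 3 (0.0521) and without PASCs 3 (0.134), and the log2 value was 2.85 without SASCs 2. With only the SASCs and PASCs samples in the fit, Cgn had too few counts to be tested.

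Of 34 other tight junction proteins in the table, 27 could be tested. In EASCs against SASCs 8 rose and 1 fell, in PASCs against SASCs 4 rose and 2 fell, and in EASCs against PASCs 3 were higher. Scaled by total counts alone, the first split was 3 higher and 2 lower, and the second 3 and 5. The median log2 fold changes of the 27 were 0.24, -0.07 and 0.31, and the first was -0.14 by total counts alone. Amotl2, an angiomotin-like scaffold, was 1.21 higher on the log2 scale in EASCs than in SASCs (edgeR adjusted p = 1.85e-17), and 0.82 by total counts alone. Jam3, a relative of F11r, had 30.5, 22.7 and 24.8 CPM in SASCs, PASCs and EASCs and was no DEG, and neither were Ybx3 and Amotl1.

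Of 21 other claudin genes, including the claudin-like Cldnd1, only 3 had enough counts to be tested, and 4 had 0 counts in every sample (Cldn8, Cldn16, Cldn17 and Cldn18). Among the 3, Cldnd1 (33.6 to 46.6 CPM as group means) and Cldn12 (37.9 to 41.9 CPM) were no DEGs in any comparison. Cldn11, known from oligodendrocytes and Sertoli cells, was a DEG in both visceral depots against SASCs. Its mean was lowest in PASCs, but EASCs and PASCs were not told apart (log2 fold change 0.86, edgeR adjusted p = 0.184). It went from 2.14 CPM in SASCs to 0.474 in PASCs (log2 fold change -2.08, edgeR adjusted p = 0.000137) and 0.916 in EASCs (log2 fold change -1.22, edgeR adjusted p = 0.00906). Its PASCs samples held 1 to 25 counts, and the log2 value in PASCs was -3.03 without PASCs 1. The call in EASCs was lost without SASCs 2 (edgeR adjusted p = 0.0504). The median log2 fold changes of the 3 were -0.47, -0.39 and -0.08 in the order EASCs against SASCs, PASCs against SASCs and EASCs against PASCs. Cldn5, the main claudin of endothelium, had at most 10 counts in a sample and was not tested.

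Of 16 adherens junction genes, 14 were tested. Against SASCs, 4 rose and 1 fell in each visceral depot, and 3 were higher in EASCs than in PASCs, with medians of 0.41, 0.13 and 0.25 in the same order. The fall in EASCs was in Ctnna3, named after its values were seen, and was lost without EASCs 2 or EASCs 3 (edgeR adjusted p = 0.0565 and 0.0645). Scaled by total counts alone, the middle median was -0.19, and 3 rose and 1 fell in each comparison with SASCs. Cdh2, N-cadherin, had 67.3 CPM in SASCs, 46.5 in PASCs and 132 in EASCs, and was a DEG in EASCs against PASCs (edgeR adjusted p = 4.05e-17). Cdh11 rose in both visceral depots, by 1.40 in PASCs and 1.30 in EASCs on the log2 scale, and so did Vcl, vinculin, by 1.24 and 1.66. By total counts alone, Cdh11 in EASCs (0.90) and Vcl in PASCs (0.93) were under the fold threshold. Cdh1, E-cadherin, the defining cadherin of epithelium, had at most 6 counts in a sample. Cdh3, P-cadherin, named here after its values were seen, had 2 to 3 counts per SASCs sample but reached 37.7 ± 2.99 in PASCs and 65.8 ± 1.86 in the EASCs samples (CPM, SD, n = 3). It rose in both visceral depots (edgeR adjusted p = 1.39e-24 in PASCs and 4.17e-26 in EASCs), as Dsp and Pkp2 did, but was highest in EASCs. Pvrl4, a nectin named likewise, had at most 2 counts per SASCs sample, 12 to 16 in PASCs and 43 to 55 in EASCs and was a DEG in both. Ctnnb1 and Ctnna1, the catenins of highest FPKM, were no DEGs.

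Of 17 transcription and splicing factors known to act on junction genes, 12 were tested. In EASCs against SASCs 3 fell, in PASCs against SASCs 4 fell, and in EASCs against PASCs 1 was higher, with medians of -0.59, -0.31 and -0.25. Scaled by total counts alone, 6 fell in EASCs against SASCs. The 4 in PASCs were Grhl1, Snai2, Zeb2 and Snai3, the last named here after its values were seen, which lost its call without PASCs 2 (edgeR adjusted p = 0.0832). Snai3 was also the gene higher in EASCs than in PASCs (edgeR adjusted p = 0.0138), and that call was lost without EASCs 1, PASCs 1 or PASCs 2 (edgeR adjusted p from 0.0592 to 0.0980). Zeb2 was lowest in PASCs, at 101 ± 7.70 CPM against 243 ± 20.4 in SASCs and 147 ± 8.29 in EASCs (SD, n = 3), which is the group order of Jup. The drop of Zeb2 in PASCs was 1.27 on the log2 scale (log2 fold change -1.27, edgeR adjusted p = 9.24e-16). Zeb1, Snai2 and Twist1 were lowest in EASCs, with 25.7, 2.38 and 27.2 CPM against 51.3, 8.91 and 62.5 in SASCs. Of these, Snai2 (log2 fold change -1.90, edgeR adjusted p = 4.40e-09) and Twist1 (-1.20, edgeR adjusted p = 2.51e-15) were DEGs in EASCs against SASCs, whereas Zeb1 was just short of 2-fold. The largest fall of the list was in Grhl1, a Grainyhead-like factor named here after its values were seen, with 2.53 CPM in SASCs, 0.340 in PASCs and 0.123 in EASCs. Its log2 fold changes against SASCs were -2.85 in PASCs (edgeR adjusted p = 1.85e-06) and -4.27 in EASCs (edgeR adjusted p = 3.57e-08, and -5.18 on the log2 scale without EASCs 2). Snai1 and Klf4 were no DEGs, and Grhl2 had at most 2 counts in a sample. Whether these factors had a part in the levels of the junction genes was not tested.

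The genes most like each tested gene over the 9 samples were found by Pearson's r of log2 CPM. For Pkp2 they were Iqgap3 (r = 0.999), LOC100911069 (0.998) and Cenpi (0.998), and for Dsp they were Ctbp1 (0.997), Uap1l2 (0.997) and Aldh4a1 (0.996). For Jup they were LOC684327, LOC103693554 and Ednra (each 0.996), and for Cldn15 they were Iffo1 (0.997), Rnf157 (0.996) and Vps13a (0.995). With 3 groups of 3 samples, such an r largely reflects the order and spacing of the group levels, and 1287 genes had an r above 0.95 with Pkp2, 514 with Dsp, 318 with Jup and 781 with Cldn15. For Tjp1 the nearest were Mbnl1 (0.982), Clmp (0.976) and Zfand4 (0.969), with 10 genes above 0.95. The scarce genes had few, with Usp31 (0.969) and Ankrd33b (0.955) among the 3 nearest to Cgn, and Tmem150b (0.956), Chic2 (0.952) and Mei1 (0.946) nearest to Ocln. F11r had no gene above 0.95, the nearest being LOC100911716 (0.936), Ccdc37 (0.921) and Chrne (0.920).

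Markers of cells that make desmosomes or tight junctions in fat also differed between the depots. Mesothelial cells line the peritoneum that covers visceral fat, and of 14 of their markers 10 were tested. In EASCs against SASCs 8 rose and 1 fell, in PASCs against SASCs 9 rose and 1 fell, and in EASCs against PASCs 1 was higher and 1 lower, with medians of 2.67, 2.02 and 0.26. The second median was 1.95 with a gene at 0 in SASCs set to its bound. Bnc1, named here after its values were seen, counts among the rises, but its call in PASCs was lost by total counts alone and without PASCs 2, PASCs 3, SASCs 1 or SASCs 3, and its call in EASCs without EASCs 3. Krt7, a keratin, followed the order of Dsp and Pkp2, with 1.76 CPM in SASCs, 126 in PASCs and 61.8 in EASCs. It was the marker lower in EASCs than in PASCs (log2 fold change -1.03), a call that was lost with upper-quartile scaling. Wt1 had 1.91, 36.0 and 53.7 CPM and Msln, mesothelin, had 12.5, 36.2 and 38.5 CPM in the same order of groups. Upk3b had 0.0325, 2.38 and 2.30 CPM, and Krt8 rose by 1.47 in PASCs and 1.97 in EASCs on the log2 scale. Krt18 was at 0 in every SASCs sample and at least 4.82-fold higher in PASCs and at least 17.8-fold higher in EASCs, whereas Krt19 had at most 8 counts in a sample and Calb2 none. The fall was in Pdpn, podoplanin, which stood at 298 CPM in SASCs and fell by 2.58 in PASCs and fell by 3.13 in EASCs on the log2 scale. Summed over the 14 markers, the level was 309 to 334 CPM in SASCs, from 277 to 282 in PASCs and from 227 to 242 in EASCs, since Pdpn made up most of the sum in SASCs. The part of mesothelial cells in the levels of Dsp and Pkp2 was not tested.

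**Figure D4:**
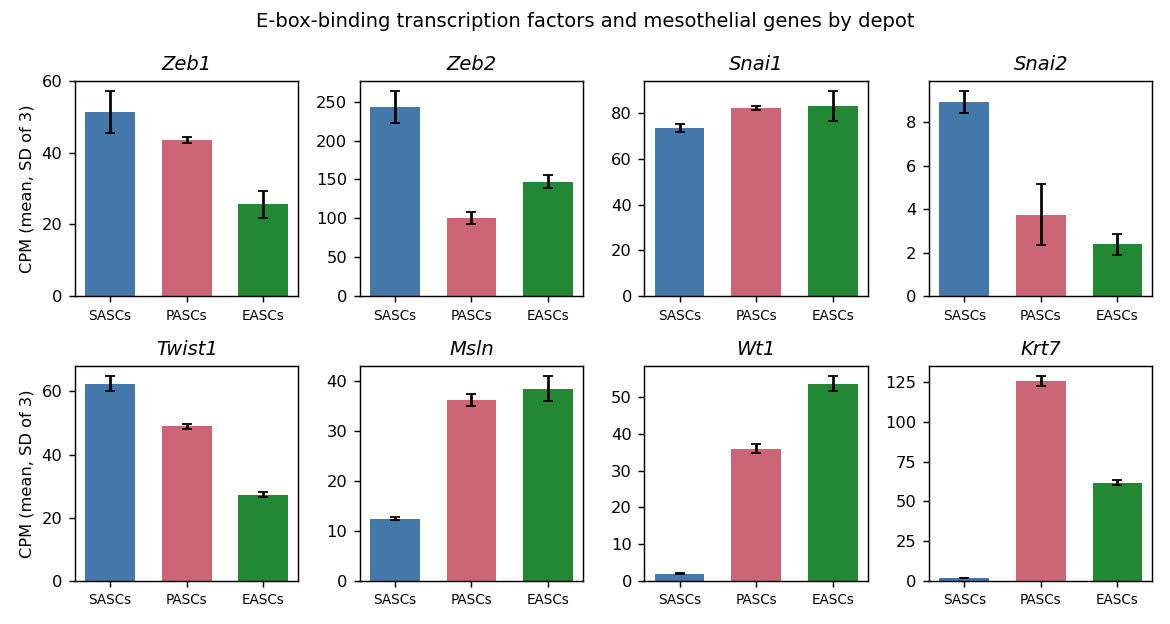
CPM of 5 factors that bind E-box letters (Zeb1, Zeb2, Snai1, Snai2, Twist1) and of the mesothelial genes Msln, Wt1 and Krt7, 1 panel per gene, with bars for the mean of 3 samples per group and error bars for the SD. Zeb2 was lowest in PASCs, Zeb1, Snai2 and Twist1 were lowest in EASCs, and the mesothelial genes were lowest in SASCs.

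Of 14 epithelial markers only 2 were tested, St14 and Krt14, and both rose against SASCs in both visceral depots. Krt14 was at 0 in every SASCs sample and was at least 11.9-fold higher in PASCs and at least 4.39-fold higher in EASCs, and the difference between EASCs and PASCs was a DEG that was lost without EASCs 1, PASCs 2 or PASCs 3 (edgeR adjusted p from 0.0619 to 0.172). By total counts alone, St14 in PASCs was under the fold threshold (0.93). With Krt14 at its bound, the list's medians were 1.82 in EASCs and 2.42 in PASCs against SASCs, where the fitted values gave 4.12 and 4.71, and the median was -0.59 in EASCs against PASCs. The summed level was 2.19 to 3.40 CPM in SASCs, from 6.28 to 6.66 in PASCs and from 6.69 to 6.98 in EASCs. Epcam, a defining epithelial marker, had 9 to 27 counts in EASCs and means of 0.0510 CPM in SASCs and 0.0177 in PASCs.

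Endothelial markers, of which 8 of 9 were tested, were lowest in PASCs: 7 fell and 1 rose against SASCs, 7 were higher in EASCs than in PASCs, and 1 rose and 1 fell in EASCs against SASCs. By total counts alone, 1 rose and 3 fell in EASCs against SASCs, with a median of -0.74. With TMM, the medians were -0.33, -2.62 and 2.11 for EASCs against SASCs, PASCs against SASCs and EASCs against PASCs. The summed level was 59.9 to 60.6 CPM in SASCs, from 15.0 to 17.9 in PASCs and from 41.9 to 45.7 in EASCs. Cdh5, VE-cadherin, had 9.20, 1.13 and 9.77 CPM, and Pecam1 had 10.6, 1.11 and 6.47 CPM. These markers and Jup were both lowest in PASCs, and their part in the Jup level was not tested.

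Leukocyte markers summed to 18.1 to 21.4 CPM in SASCs, from 34.8 to 37.3 in PASCs and from 62.5 to 67.7 in EASCs, the depot with the most Ocln. Of their 5 tested genes of 7, 5 rose in EASCs and 2 in PASCs against SASCs, and 1 was higher in EASCs than in PASCs, with medians of 1.61, 0.68 and 0.93. By total counts alone, 4 rose in EASCs and 1 in PASCs. Cd68 had 12.6, 16.0 and 35.8 CPM, while Cd3e had 0 counts in every sample. Adipocyte markers ran the other way, as Cldn15 did, with sums of 56.3 to 61.3, 14.4 to 15.7 and 6.53 to 7.30 CPM in SASCs, PASCs and EASCs. Of 4 tested of 5, 3 fell in each comparison, with medians of -3.54, -1.91 and -1.36. Markers of Schwann cells and melanocytes also followed that order, with sums of 74.8 to 77.6, 15.5 to 18.1 and 6.57 to 8.05 CPM. Of 5 tested of 8, 4 fell in EASCs and 2 in PASCs against SASCs, and 3 were lower in EASCs than in PASCs, with medians of -2.51, -0.99 and -1.04. By total counts alone 3 fell in PASCs, and with upper-quartile scaling 3 fell in EASCs. The part of these cells in the levels of Ocln and Cldn15 was not tested.

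The labels call the cells mesenchymal stem cells. Of 11 listed markers of such cells all were tested, and they summed to 25484 to 26640 CPM in SASCs, from 22940 to 27906 in PASCs and from 26559 to 29309 in EASCs. Against SASCs, 2 rose and 3 fell in EASCs and 3 fell in PASCs, and 2 (Eng and Nt5e) were higher in EASCs than in PASCs, with medians of 0.18, 0.28 and 0.08. By total counts alone, Nt5e was under the fold threshold there (0.94), 1 was higher and 1 lower, and the medians against SASCs were -0.22 in EASCs and -0.044 in PASCs. These sums were mostly collagen and matrix genes. Among the surface markers, which are named here after their values were seen, Thy1 had 545, 777 and 405 CPM, Cd44 209, 253 and 236 CPM, Nt5e 339, 316 and 637 CPM, and Eng 60.0, 89.8 and 204 CPM in SASCs, PASCs and EASCs. Pdgfra, a receptor of fibroblast precursors and also named after its values were seen, fell from 1543 CPM in SASCs to 278 in PASCs (log2 fold change -2.47, edgeR adjusted p = 3.50e-23) and 235 in EASCs (log2 fold change -2.72, edgeR adjusted p = 4.19e-24). Col1a1, a collagen chain of fibroblasts, had 10697, 19134 and 20332 CPM in SASCs, PASCs and EASCs. Dcn and Lum, matrix proteoglycans of fibroblasts, were far lower in both depots where Dsp and Pkp2 were higher, with Dcn at 6880, 218 and 301 CPM and Lum at 3234, 93.1 and 74.1 CPM.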

How the data were processed

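RNA-Seq reads were aligned by the authors with TopHat, with rn6 as the reference per the methods, while the submitters' processing notes list rn5 and TopHat2, and the coordinates in the table were those of rn6. The deposited file holds raw counts per gene for 9 samples, and the counting tool and its strand setting are not given in the sources used here. 3 columns of counts per group were mapped to samples by title. The study called DEGs with DEGseq, and its results were not used.

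Counts were tested with edgeR 4.0.16 in R 4.3.3 (filterByExpr, TMM, glmQLFit and glmQLFTest, group only, all 9 samples in 1 fit), and p-values were adjusted by Benjamini-Hochberg over 14770 genes. The common biological coefficient of variation was 0.0685. FPKM was computed from the deposited counts and the table's gene lengths. Floors of 3 counts cover counting error only. Alternatives used DESeq2 1.42.0, limma 3.58.1, other scalings, filters and thresholds, a replicate block, and leaving out each sample. On simulated counts for EASCs against SASCs with 200 changed genes among 14770, edgeR found 94 of 100 at 3-fold and 95 of 100 at 5-fold, with 2 false calls. On the same counts limma found 64 and 81 of 100. The changed genes were drawn from all tested genes, as many higher as lower, and were a far smaller share than the DEGs in the data. These rates therefore do not describe genes with few counts. All 9 were counted as separate samples. In the pairs of samples within a group, counts differed by more than sampling noise (chi-square per degree of freedom at least 6.23). That value was scaled by raw totals, so differences in the ribosomal RNA share add to it. It cannot tell separate cultures from libraries of 1 culture.

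All 9 genes are named. Of each companion or marker list, counts are given with the 3 genes of highest mean FPKM and a fixed set of names, and the genes most like each tested gene are the 3 with the highest r. Other genes were named after their values were seen. Some genes under the rule are given by count only or are not reported here. The 9 genes and all lists were chosen with earlier results of these data known.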

Additional observations from a re-analysis of the deposited data

How the results depend on the processing

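Of the log2 fold changes of the 8 tested genes under the alternatives, 333 kept their direction and side of the threshold, 18 lost the call, 1 gained it (Jup in EASCs against SASCs, -1.08 by total counts alone) and 6 reversed. The reversed values were those of Tjp1 in EASCs (-0.23) and PASCs (-0.020), Ocln in PASCs (-0.17) and F11r in EASCs (-0.27), all against SASCs by total counts alone, and Ocln in PASCs against SASCs without SASCs 3 (-0.35) and without PASCs 1 (-0.59), in a range of -0.59 to 0.75 over the samples left out. None of these 4 comparisons was a DEG. With only the 2 groups compared in the fit, Cgn and Ocln were below the filter in PASCs against SASCs. Their values there are not in these counts, and 4 of the 6 genes tested were DEGs. Without TMM, 1349 genes were higher and 3426 lower in EASCs against SASCs, beside 2002 and 2103 with it, and 1262 and 3169 in PASCs against SASCs, beside 1779 and 2200. The listed genes that were DEGs (59, 56 and 30 in EASCs against SASCs, PASCs against SASCs and EASCs against PASCs, overlaps between lists counted once) kept their sign under DESeq2, total-count and upper-quartile scaling, though some of their calls were lost. Those checks, and leaving out samples for those lists, were chosen after seeing the data. With limma on log2(FPKM + 1), which compresses low genes, the DEGs among the 8 numbered 2, 2 and 0 in the same order, and those among all genes 1895, 1823 and 265. Of the 8, 5 still had a limma adjusted p under 0.05 in the last comparison, with fold changes below 2. The share of all genes at that limma setting was not computed, so this count is a description. On log2(FPKM + 0.1), Cgn lost its call in both comparisons with SASCs, at 0.89 in EASCs and 0.59 in PASCs, and Pkp2 in EASCs against PASCs, at -0.99. At a fold change above 1.5, the DEGs among all genes numbered 6414, 6405 and 1945, and at any fold 10298, 10227 and 4530, with 5 of the 8 in EASCs against PASCs. Leaving out 1 sample gave 5 to 5, 4 to 5 and 2 to 3 DEGs among the 8, and 4115 to 4160, 3957 to 4116 and 1022 to 1065 among all genes. With the replicate number as a block, 5, 5 and 3 of the 8 and 4061, 3944 and 1067 of all genes were DEGs, but the numbers did not pair the samples (correlations of same-numbered samples from -0.0348 to 0.0380). The depth limits Cldn1, Ocln, Cgn and, in SASCs, Dsp and Pkp2, which rest on few counts per sample.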
